A study of Mus musculus with 12 samples.

Results

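The 10 genes followed here mark the choroid plexus, and their levels were read array by array in the mouse cerebellum. The genes were Ttr, Kl, Folr1, Kcne2, Kcnj13, Aqp1, Otx2, Clic6, Prlr and Sostdc1, and their probe sets were those that the platform annotation assigns to these symbols. Of these 10 genes, 7 had at least 1 probe set, 11 in all, out of 12393 genes with a probe set of their own; Kcnj13, Clic6 and Prlr were not matched and were not analysed here. The samples were whole cerebella of 12 individual BALB/c Npc1 mice, 3 in each of 4 groups. The genotypes were Npc1+/+ (wild-type) and Npc1-/- (null), and the ages were postnatal day 21 (P21) and postnatal day 49 (P49). No group received a treatment, and all animals lived under the same housing on standard chow. The null animals carry the loss of Npc1, which exports cholesterol from lysosomes, in every cell of the body, and each group is 3 animals of a single strain. The question put to the members was how far their levels follow the tissue on an array rather than genotype or age.

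The choroid plexus is a folded sheet of epithelium in the brain ventricles that secretes cerebrospinal fluid and guards its exchange with blood. One plexus lies in the fourth ventricle, directly beneath the cerebellum, so a dissected cerebellum can carry more or less of it. Its epithelium makes very large amounts of transthyretin, and its apical and basal membranes hold channels and carriers for water, potassium and folate.

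The labels were checked before the members were read. Npc1 was lower in the null animals by 1.95 at P21 and by 1.43 at P49 on the log2 scale, and the null and wild-type arrays did not overlap at either age. Granule neuron markers, the defining neurons of the cerebellum, were all well measured: 12 of 14 had a probe set, all 12 passed the filter on dim genes, and their summed intensity lay between 663432 and 733579 on every array. The labels give 11 females and 1 male. The level of Xist went against the labelled sex on 2 arrays (wild-type P21 replicate 2 and null P49 replicate 1), and 4 arrays in all went against their label or stood apart in Xist (also null P21 replicates 2 and 3, at 13.01 and 13.36, where arrays labelled female otherwise read 15.61 to 15.86 apart from 9.29 on wild-type P21 replicate 2). Y-linked Eif2s3y read 12.72 on wild-type P21 replicate 2 and 12.67 and 9.25 on null P21 replicates 3 and 2, all labelled female, and 4.35 to 8.91 on the others. Whether labels were exchanged or tissue was mixed on these arrays was not tested. Those 4 arrays include several of those with the highest levels of the members described here, so the P49 values are also given without them.

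Levels are log2(quantile-normalized intensity + 16), so 1 unit is a 2-fold change, and differences are null minus wild-type or P49 minus P21 on that scale. A difference was called at an adjusted p below 0.05 in limma, with Benjamini-Hochberg adjustment over all genes tested. Ttr, Folr1 and Otx2 passed the filter on dim genes, a mean level of 9.93, and their values come from the fit to the 7835 genes above it. Kl, Kcne2, Aqp1 and Sostdc1 lay below it, and their values come from the fit to all 12393 genes.

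The choroid plexus genes differed widely between animals of the same genotype and age, and they did so together. Ttr spanned 40.2-fold over the 12 arrays on the probe set that stands for it (93.3-fold and 175-fold on its other 2), Sostdc1 87.0-fold, Kl 81.2-fold and Kcne2 78.5-fold. The lowest intensities of Sostdc1, Kl and Kcne2 were 39.6, 27.1 and 13.6, near the 16 added before the log, so their spans are not measured folds. The probe set that stands for Ttr lay at the top of the scale on its highest arrays. Among all probe sets it ranked 1 on null P49 replicate 3 and 4 on wild-type P21 replicate 3. Whether this narrowed its span was not tested. No member was called for genotype or for age in any of the 5 comparisons. At P49 all 7 members had a higher mean in the null animals, by 0.36 (Otx2) to 3.50 (Sostdc1).

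Ttr encodes transthyretin, the carrier of thyroxine and of retinol-binding protein that is the most characteristic secreted product of the choroid plexus. At P21 its level was 12.34, 17.53 and 17.40 in the wild-type replicates 1, 2 and 3, and 12.58, 17.38 and 16.46 in the null replicates. At P49 it was 15.03, 14.36 and 12.76 in the wild-type and 17.62, 16.23 and 17.67 in the null animals. Both P21 groups thus held 1 array near 12.5 and 2 arrays above 16, and they overlapped almost completely, whereas at P49 every null array lay above every wild-type array. The other 2 Ttr probe sets ordered the arrays alike (r of 0.976 to 0.989 among the 3) but spanned more: the P49 difference was 3.78 ± 1.42 and 4.36 ± 1.55 on them, uncalled in a fit of all 22626 probe sets, against 3.13 on the probe set used here. In these bulk samples, fewer choroid plexus cells and less RNA per cell cannot be told apart.

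**Figure D1:**
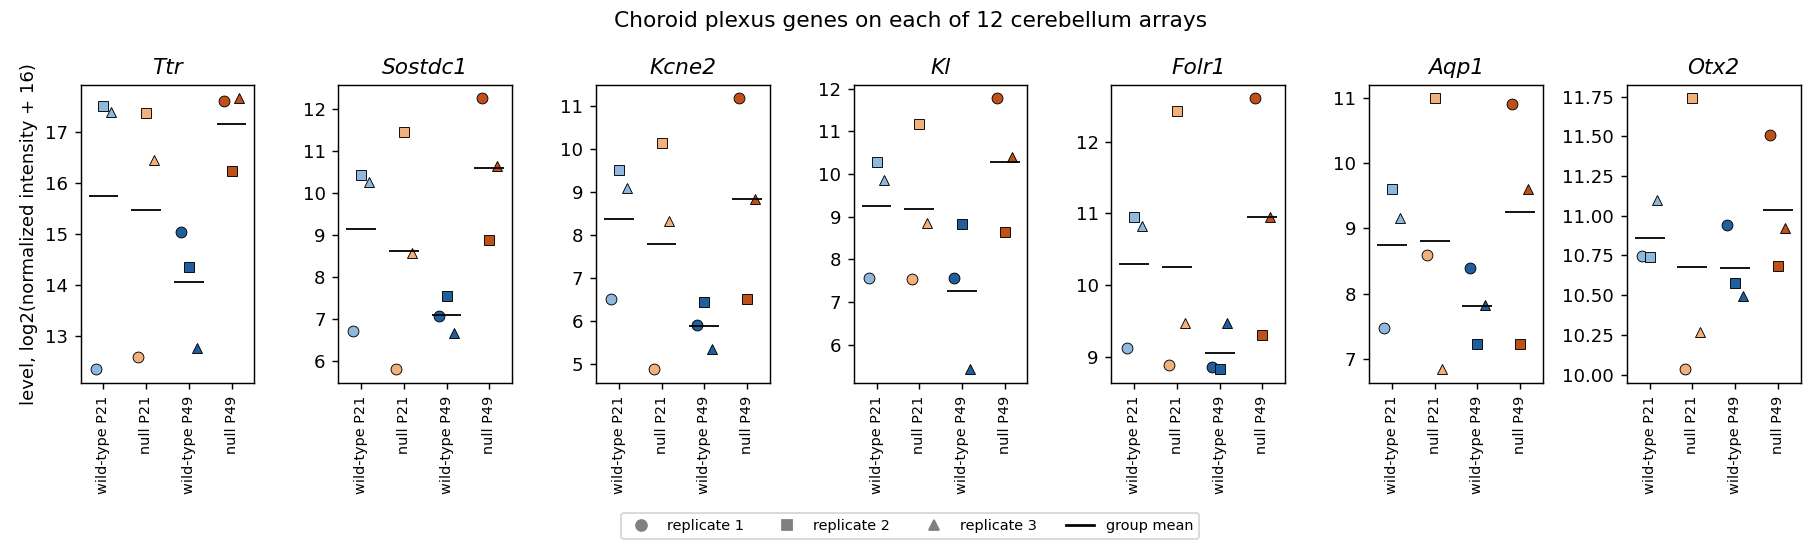
Level of the 7 measured members, log2(normalized intensity + 16), on each of the 12 arrays; each point is 1 animal, its shape gives the replicate number and the line is the group mean. In Ttr, Sostdc1, Kcne2 and Kl the points of a group lie several log2 units apart, and null P49 replicate 1 and null P21 replicate 2 are high in nearly every panel while wild-type P21 replicate 1 and null P21 replicate 1 are low in most.

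Sostdc1, a secreted antagonist of BMP and WNT signalling, had the widest span of the probe sets that stand for the genes. Its level was 6.70, 10.43 and 10.26 in wild-type P21, and 5.80, 11.45 and 8.56 in null P21. At P49 it was 7.07, 7.54 and 6.65 in the wild-type and 12.24, 8.88 and 10.63 in the null animals. The low and high arrays were those of Ttr, and again only the P49 groups did not overlap. Its second probe set read 4.86, 4.88 and 5.86 in wild-type P49, intensities of 13.0, 13.4 and 42.1 that lie near the bottom of each array, against 12.85, 9.13 and 10.64 in null P49.

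Kcne2 encodes a potassium channel subunit of the apical membrane of the choroid plexus. At P21 its level was 6.52, 9.52 and 9.10 in the wild-type and 4.89, 10.16 and 8.33 in the null replicates. At P49 it was 5.91, 6.44 and 5.35 in the wild-type and 11.18, 6.53 and 8.85 in the null replicates. The P49 groups did not overlap, but the lowest null array (6.53) and the highest wild-type array (6.44) nearly touched. Kl encodes Klotho, a co-receptor for FGF23 whose shed form enters the cerebrospinal fluid. Its level was 7.57, 10.28 and 9.87 in wild-type P21, 7.54, 11.17 and 8.85 in null P21, 7.56, 8.82 and 5.43 in wild-type P49 and 11.77, 8.64 and 10.40 in null P49. The Kl groups overlapped at both ages, and a second Kl probe set stayed between 5.10 and 6.45 on all arrays.

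Folr1 encodes folate receptor alpha, which carries folate from blood into the cerebrospinal fluid. Its level was 9.13, 10.95 and 10.82 in wild-type P21, 8.88, 12.42 and 9.47 in null P21, 8.86, 8.82 and 9.46 in wild-type P49 and 12.60, 9.30 and 10.95 in null P49. Null P21 replicate 2 and null P49 replicate 1 stood above the other 10 arrays in Folr1. Aqp1, the apical water channel of the plexus and also a protein of red cells and some vessels, had levels of 7.47, 9.60 and 9.16 in wild-type P21 and 8.60, 10.99 and 6.84 in null P21. At P49 Aqp1 read 8.40, 7.23 and 7.82 in the wild-type and 10.92, 7.23 and 9.60 in the null animals. The same 2 arrays were highest in Aqp1, but null P21 replicate 3, well up in Ttr, was lowest of all 12 in Aqp1.

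Otx2 encodes a homeodomain transcription factor needed to form and maintain the choroid plexus and also made in granule cell precursors of the posterior cerebellum. Its level was 10.75, 10.74 and 11.10 in wild-type P21, 10.04, 11.74 and 10.27 in null P21, 10.94, 10.58 and 10.50 in wild-type P49 and 11.51, 10.68 and 10.92 in null P49. It moved least: its span was 3.26-fold, all groups overlapped, and the same 2 arrays were highest.

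Promoters are shown because the members moved together from array to array and OTX2 is among them. RefSeq promoter entries (GRCm38.p6) were matched for 6 of the 10 genes: Kl, Kcne2, Aqp1, Otx2, Kcnj13 and Prlr, with 12 starts between them. The 250 bases before each start were searched on both strands for the OTX motif TAATCC, which reads GGATTA on the other strand. It was present before 1 of these 12 starts, an Otx2 start, and before 6.25% of all 32851 promoters in the table. The 30 bases of that Otx2 window (chr14:48665303-48665332, minus strand, the motif in capitals and 211 bases before the start) and the 250 bases before a start of Kl (chr5:150952357-150952606, plus strand), Aqp1 (chr6:55336049-55336298, plus strand) and Kcne2 (chr16:92292139-92292388, plus strand) read, 5′ to 3′:
Otx2: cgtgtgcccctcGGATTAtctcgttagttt
Kl: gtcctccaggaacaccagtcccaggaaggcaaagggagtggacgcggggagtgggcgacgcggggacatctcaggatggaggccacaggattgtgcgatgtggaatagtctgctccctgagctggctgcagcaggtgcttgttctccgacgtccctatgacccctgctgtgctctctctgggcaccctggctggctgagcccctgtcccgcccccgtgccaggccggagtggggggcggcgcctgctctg
Aqp1: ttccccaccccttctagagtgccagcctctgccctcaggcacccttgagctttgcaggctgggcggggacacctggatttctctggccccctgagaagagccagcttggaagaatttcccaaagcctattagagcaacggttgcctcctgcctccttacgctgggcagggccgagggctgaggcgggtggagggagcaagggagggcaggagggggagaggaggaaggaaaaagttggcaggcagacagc
Kcne2: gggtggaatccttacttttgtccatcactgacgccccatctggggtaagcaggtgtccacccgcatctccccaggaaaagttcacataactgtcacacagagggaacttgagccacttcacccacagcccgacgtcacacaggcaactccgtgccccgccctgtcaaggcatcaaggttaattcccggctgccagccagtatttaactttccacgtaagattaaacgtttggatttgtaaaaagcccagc
GC was 66.8% with 13 CpG before Kl, 62% with 5 CpG before Aqp1 and 52.4% with 9 CpG before this start of Kcne2. The medians over all promoters were 52.4% and 6 CpG. A second Kcne2 start had 48% with 1 CpG, and the Otx2 starts had 42% to 53.6%. Ttr, Sostdc1 and Folr1 had no promoter entry, and Kcnj13 and Prlr had no measured level. The base composition was not tested against the shared array-by-array pattern. The match is a description of the letters only.

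Ordering the 12 arrays by each member put the same few animals at the upper end, while the lowest array differed between members. Null P49 replicate 1 ranked first in Sostdc1, Kl, Folr1 and Kcne2 and second in Ttr, Aqp1 and Otx2. Null P21 replicate 2 had a median rank of 2, null P49 replicate 3 of 3, and wild-type P21 replicates 2 and 3 of 4 and 5. Wild-type P21 replicate 1 had a median rank of 9 and null P21 replicate 1 of 11, so both P21 groups held animals high and low in that order. The 3 wild-type P49 animals had median ranks of 9, 9 and 10, and null P49 replicate 2 had one of 8.

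The spread within groups put the members among the most variable genes of the series. The within-group SD of Ttr was 2.08 (n = 12 arrays in 4 groups), the second largest of 12393 genes after Eif2s3y, a Y-linked gene. Kcne2 ranked 4th (1.97), Sostdc1 5th (1.97), Kl 15th (1.65) and Aqp1 49th (1.54), so 5 of the 7 were among the 100 most variable genes. The ranking takes in dim genes, and Kcne2, Sostdc1, Kl and Aqp1 lay below the filter themselves. No rank was taken among the genes above the filter alone. Folr1 ranked 215th (1.37). Otx2, with 0.53, ranked 3462nd, closer to the median of all genes, 0.274.

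**Figure D2:**
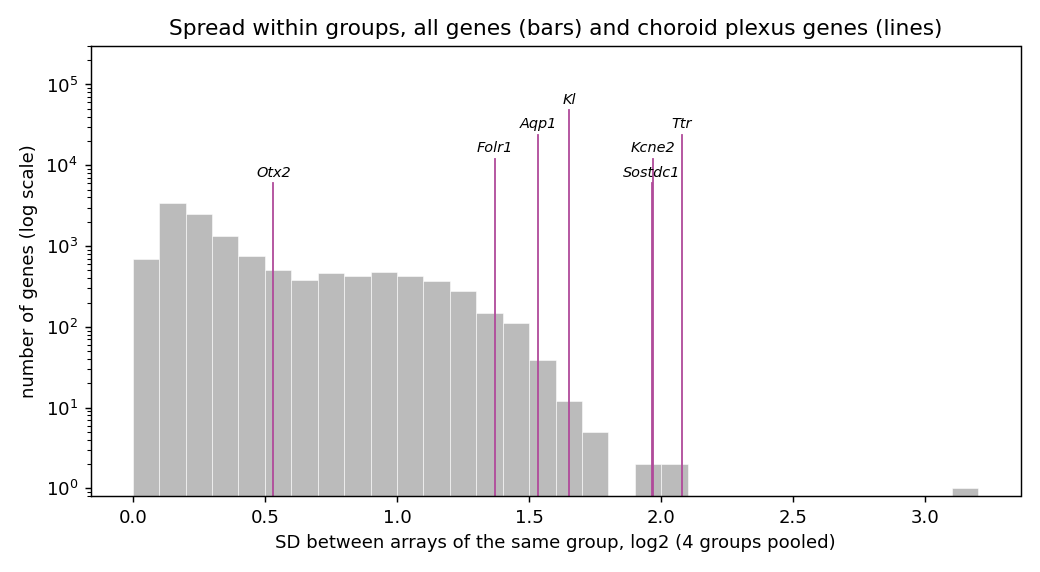
Standard deviation between arrays of the same group, in log2 units and pooled over the 4 groups, for all 12393 genes (grey bars, number of genes on a log axis) with the 7 measured members as vertical lines. The lines of 6 members lie beyond the 95th percentile of all genes, 1.19, and Otx2 does not.

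Sostdc1, Kcne2, Kl and Folr1 followed Ttr closely over the 12 arrays, and Otx2 and Aqp1 less so. Pearson's r with Ttr was 0.92 for Sostdc1 (permutation p = 2.0e-05) and 0.86 for Kcne2 (permutation p = 0.00048). It was 0.86 for Kl (permutation p = 0.00018) and 0.75 for Folr1 (permutation p = 0.00652). It was lowest for Otx2 and Aqp1, at 0.61 (permutation p = 0.0374) and 0.58 (permutation p = 0.0483). Spearman's rho was 0.91 for Sostdc1 (permutation p = 0.00013), 0.83 for Kcne2 (permutation p = 0.0012), 0.87 for Kl (permutation p = 0.00045), 0.81 for Folr1 (permutation p = 0.00219), 0.55 for Otx2 (permutation p = 0.0670) and 0.59 for Aqp1 (permutation p = 0.0484). These are two-sided values for 6 relations that share Ttr and the arrays, with 100000 resamples each and no adjustment. Arrays were shuffled across all 4 groups, so these p-values do not set the relation apart from differences between groups.

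The relation was also present within groups. There, as deviations from the 4 group means, r with Ttr was 0.89 for Sostdc1, 0.83 for Kcne2, 0.81 for Kl, 0.65 for Folr1, 0.57 for Otx2 and 0.49 for Aqp1. The r of the levels themselves, not of deviations, was also taken without the 2 arrays farthest from the median of Ttr (wild-type P21 replicate 1 and null P21 replicate 1). Over the 10 arrays left it was 0.90, 0.87, 0.91, 0.72, 0.53 and 0.63 in the same order. The r within groups was not computed without these 2 arrays. Over all 21 pairs of members r ran from 0.584 to 0.961, with a median of 0.820, and the median within groups was 0.794. Among the 12392 other genes with a probe set, Sostdc1 had the highest r with Ttr, Kcne2 the 4th and Kl the 5th highest.

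**Figure D3:**
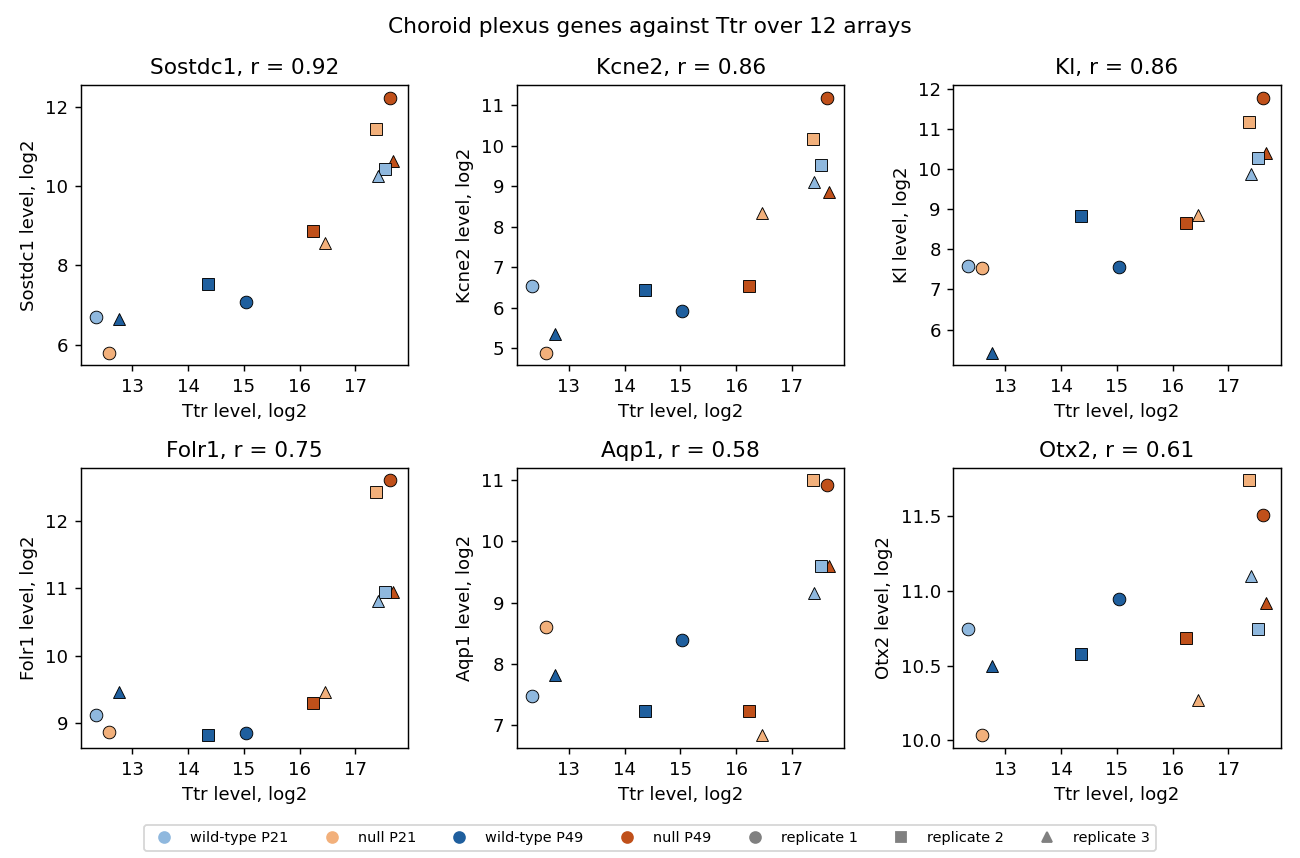
Level of 6 members (vertical axes) against the level of Ttr (horizontal axis), both log2, with 1 point per array, colour for the group and shape for the replicate; Pearson's r stands above each panel. Arrays of all 4 groups fall along 1 rising course in Sostdc1 (r = 0.92), Kcne2 and Kl, while the points of Otx2 and Aqp1 scatter more widely.

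At P21 the members did not separate the genotypes. The difference in Ttr was -0.28 ± 1.30 (SE; 3 against 3 arrays; limma adjusted p = 0.946), with a 95% interval of -3.07 to 2.50. Folr1 differed by -0.04 ± 0.87 and Otx2 by -0.18 ± 0.36, and in the fit to all genes Kl by -0.05 ± 1.07, Sostdc1 by -0.53 ± 1.26, Kcne2 by -0.59 ± 1.29 and Aqp1 by 0.06 ± 1.01. None of the 7 was called, where 0.0638% of the 7835 genes tested were called in either direction, or 0.0323% of all 12393. The intervals are wide enough to hold several-fold changes in both directions.

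At P49 the members had higher means in the null animals, without a call. Ttr differed by 3.13 ± 1.30 (SE; limma adjusted p = 0.350), with a 95% interval of 0.34 to 5.91, and Folr1 by 1.91 ± 0.87 (limma adjusted p = 0.429). In the fit to all genes Sostdc1 differed by 3.50 ± 1.26 (limma adjusted p = 0.284), Kl by 3.00 ± 1.07 (limma adjusted p = 0.276) and Kcne2 by 2.96 ± 1.29 (limma adjusted p = 0.429). Aqp1 and Otx2 differed least, by 1.43 ± 1.01 and 0.36 ± 0.36. None of the 7 was called in either fit, where 2.68% of the 7835 genes tested were called in either direction, or 1.79% of all 12393. Ttr, Sostdc1 and Kcne2, 3 of 7, had null arrays that all lay above the wild-type arrays, where 10.2% of all genes did. Without the 4 arrays that went against their label or stood apart in Xist, Ttr differed by 2.87 ± 1.09, Sostdc1 by 2.68 ± 0.95, Kl by 2.26 ± 1.01 and Kcne2 by 1.79 ± 0.97, with no member called; Aqp1 then differed by 0.60 and Otx2 by 0.13. That fit holds 3 wild-type and 2 null arrays at P49.

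The call for Ttr at P49 turned on which arrays entered the fit. With only the 6 P49 arrays in the fit the same difference, 3.13 ± 0.49, was called (limma adjusted p = 0.00282), and so was Sostdc1 in the fit to all genes (limma adjusted p = 0.0251). The SE of the Ttr difference was 1.30 in the fit of all 12 arrays and 0.49 in that of the 6. Both are limma's moderated SEs, drawn toward the trend of the other genes in the fit. They are not the spread of Ttr alone, whose SD at P49 was 1.17 in wild-type and 0.82 in null arrays. Sostdc1 was also called without wild-type P49 replicate 3 (limma adjusted p = 0.0279), where its second probe set came to stand for the gene. That probe set was called in the fit of all 22626 probe sets (limma adjusted p = 0.0127). Its wild-type P49 intensities are so low that the size of the difference is set largely by the 16 added before the log: it was 5.68 so computed and 3.01, uncalled (limma adjusted p = 0.123), with a larger number added, so neither is a measured fold. The call was lost in 8 of its 22 alternatives.

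Ttr, itself a member, was also taken as the measure of plexus tissue on an array, and the P49 differences of the other members were then lower. With the Ttr level as a covariate, Sostdc1 differed by 0.87 ± 0.79 in place of 3.50, Kcne2 by 0.50 ± 0.98 in place of 2.96 and Kl by 1.00 ± 0.83 in place of 3.00. Folr1 differed by 0.56 ± 0.83, Aqp1 by 0.29 ± 1.10 and Otx2 by -0.09 ± 0.38. All 6 intervals hold 0. With another Ttr probe set as the covariate, added after seeing the data, the differences were 0.26 ± 0.67 for Sostdc1, 0.57 ± 0.82 for Kl, 0.11 ± 0.77 for Folr1, -0.19 ± 0.84 for Kcne2, -0.06 ± 1.11 for Aqp1 and -0.22 ± 0.38 for Otx2, so Kcne2 and Aqp1 changed sign. The slope comes from the deviations within all 4 groups, where r with Ttr was positive for each of these members. As Ttr was also higher in null P49, lower values were fixed in advance and do not tell plexus content from genotype. The Ttr levels of the P49 groups do not overlap, and genotype and plexus content at P49 cannot be told apart from these 6 animals alone.

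**Figure D4:**
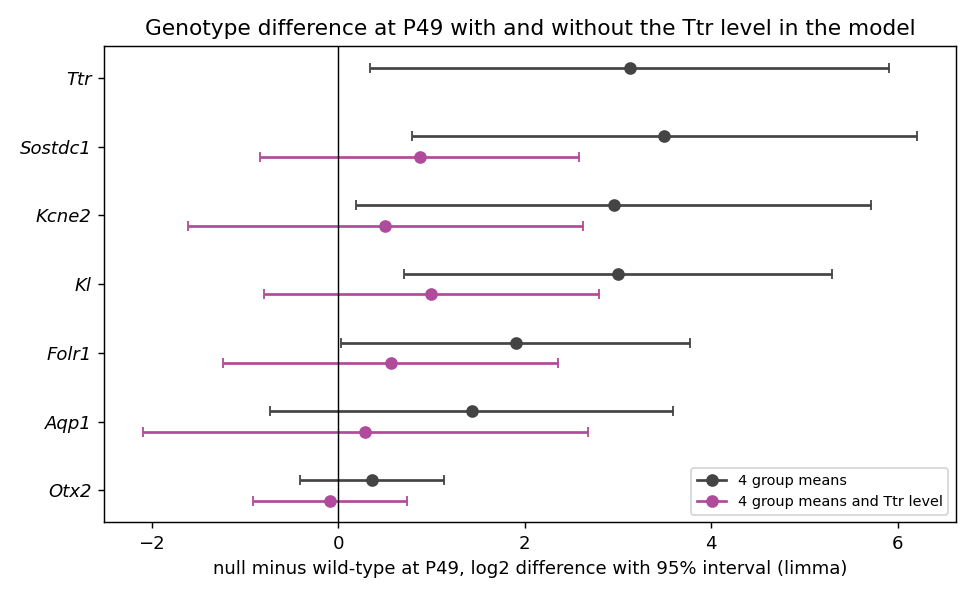
Null minus wild-type difference at P49 in log2 units, with its 95% interval from limma, for each member in the fit of 4 group means (grey) and with the Ttr level of each array added (purple; not for Ttr itself; Ttr read by the probe set that stands for it). The grey intervals of Ttr, Sostdc1, Kcne2, Kl and Folr1 lie above 0, and the purple estimates lie nearer 0, between -0.09 for Otx2 and 1.00 for Kl, with intervals that all hold 0.

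Neither age comparison called a member, and the signs of the values were opposite in the 2 genotypes. From P21 to P49 in wild-type mice Ttr differed by -1.71 ± 1.30, Kcne2 by -2.48 ± 1.29, Sostdc1 by -2.05 ± 1.26, Kl by -1.97 ± 1.07, Folr1 by -1.25 ± 0.87, Aqp1 by -0.93 ± 1.01 and Otx2 by -0.19 ± 0.36. None was called, where 0.702% of genes tested and 0.347% of all genes were. By the probe set that stands for each gene only Kcne2 had P49 arrays all below the P21 arrays, where 9.26% of all genes did. Its lowest P21 array (6.52) and highest P49 array (6.44) nearly touched. The second Sostdc1 probe set, near background in wild-type P49, also had P49 arrays all below the P21 arrays. In null mice Ttr differed by 1.70 ± 1.30, Sostdc1 by 1.98 ± 1.26, Kl by 1.09 ± 1.07, Kcne2 by 1.06 ± 1.29, Folr1 by 0.70 ± 0.87, Aqp1 by 0.44 ± 1.01 and Otx2 by 0.36 ± 0.36, and none was called, where 6.2% of genes tested and 3.32% of all genes were. Otx2 alone was called, at 0.89, without null P21 replicate 2 (limma adjusted p = 0.0413). The difference between the genotypes' age changes was 3.41 ± 1.83 for Ttr (limma adjusted p = 0.679) and 4.02 ± 1.78 for Sostdc1 (limma adjusted p = 0.630), with no member called, where 0.549% of genes tested and 0.274% of all genes were.

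Other genes known from the choroid plexus moved with the members in part. Of a list of 44, 34 had a probe set and 16 passed the filter. Of the 34, 10 (29.4%) had an r with Ttr above 0.5, against 4.2% of all genes. Calml4, below the filter, came closest at 0.86, with levels of 7.68, 9.81 and 9.21 in wild-type P21, 7.57, 10.28 and 8.18 in null P21, 8.50, 7.62 and 6.14 in wild-type P49 and 10.29, 8.17 and 9.54 in null P49. Igfbp2, a binding protein for insulin-like growth factors that meninges also make, reached 0.79, Rdh5, a retinol dehydrogenase, 0.75, and Ecrg4, a secreted peptide precursor of the plexus, 0.72. Ecrg4 departed from Ttr on null P21 replicate 2, where it read 9.58 while Ttr, Folr1 and Sostdc1 were high. Other genes of the list did not follow Ttr: r was 0.04 for Slc12a2, -0.07 for Slc4a10, -0.28 for Atp1b1 and -0.51 for Cox8b. The median r of the 34 was 0.42. Their summed intensity lay between 229595 and 286727 on every array, while that of the 7 members ran from 7908 to 223320. Both sums are weighted toward the brightest gene. Atp1b1, the brightest of the 34, read 16.67 to 17.14, and Ttr held 201689 of the members' 223320 on null P49 replicate 1. The sums therefore do not show that the dimmer genes of the list stayed level.

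Of the 16 tested genes of that list, 2 were called higher in null at P49 and 0 lower, where 1.53% of genes tested were called higher and 1.15% lower. Igfbp2 read 11.85, 11.79 and 12.08 in wild-type P49 against 13.85, 13.22 and 13.61 in null P49, a difference of 1.65 ± 0.30 (limma adjusted p = 0.0073). Ecrg4 read 9.92, 9.97 and 9.75 against 13.28, 11.12 and 12.00, a difference of 2.25 ± 0.55 (limma adjusted p = 0.043). In both, the P49 groups did not overlap. The next smallest p-values belonged to Col9a3 (0.50 ± 0.15, limma adjusted p = 0.123) and Slc6a20a (0.60 ± 0.24, limma adjusted p = 0.319). The median difference of the 16 was 0.28, against -0.02 for all genes tested. With Ttr as a covariate neither was called: Igfbp2 differed by 1.13 (limma adjusted p = 0.0664) and Ecrg4 by 1.38 (limma adjusted p = 0.393). The call for Ecrg4 was lost in 12 of 24 alternatives in all, and that for Igfbp2 in 3 of 25. Without the 2 arrays whose Xist went against the label, which include null P49 replicate 1, Igfbp2 differed by 1.51 (limma adjusted p = 0.0540) and Ecrg4 by 1.68 (limma adjusted p = 0.163).

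Markers of the tissues next to the plexus were read the same way, and their part in the members' differences was not tested. Of 17 tested meningeal fibroblast genes, 7 (41.2%) had an r with Ttr above 0.5, against 3.61% of all genes tested. The summed intensity of the list was 121866 to 177094 in wild-type P21, 103536 to 234113 in null P21, 180762 to 205922 in wild-type P49 and 223201 to 242231 in null P49. Of the 17, 16 had a higher mean in null at P49, with a median difference of 0.38 against -0.02 for all genes tested. Fmod, a collagen-binding proteoglycan, was the 1 called (1.40 ± 0.30, limma adjusted p = 0.0183), where 1.53% of genes tested were called higher. With Ttr as a covariate Fmod differed by 1.06 ± 0.32 (limma adjusted p = 0.203), and its call was lost in 7 of 25 alternatives, with an adjusted p of up to 0.131 when 1 array was left out. Igf2, next in order, differed by 0.89 ± 0.31 (limma adjusted p = 0.212). None of the 15 endothelial, 12 granule neuron and 11 Purkinje cell genes tested had an r with Ttr above 0.5, where 3.61% of all genes tested had. Their median r was -0.06, -0.06 and -0.39 in that order. Of the 10 microglia genes tested, 4 (40%) had an r with Ttr above 0.5. The median r of the 10 was 0.48 over the 12 arrays and 0.18 within groups.

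**Figure D5:**
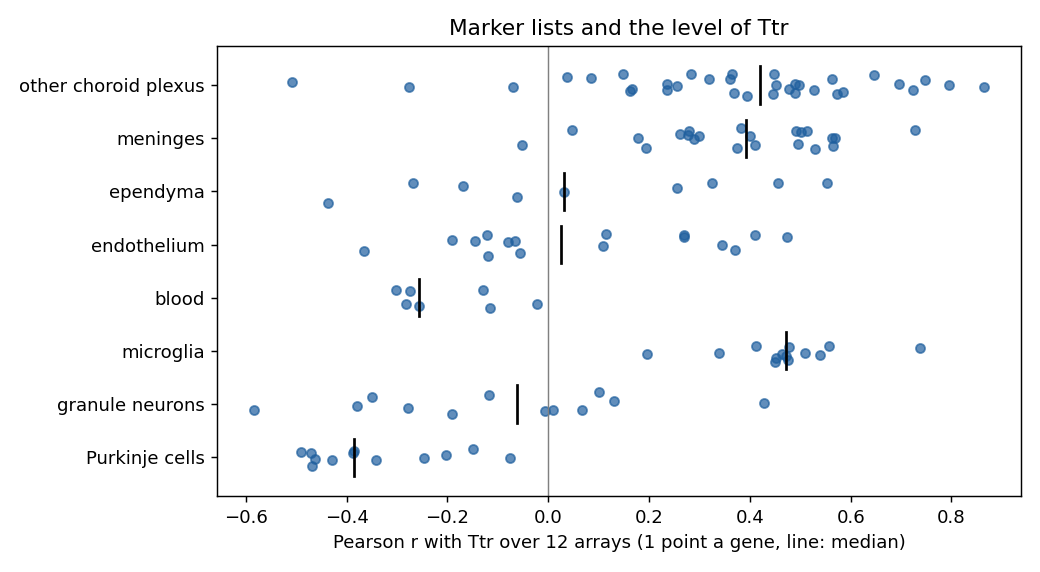
Pearson's r with Ttr over the 12 arrays for each gene with a probe set in 8 marker lists, 1 point per gene and a line at the list's median; the vertical scatter within a row has no meaning. Choroid plexus genes outside the members and meningeal genes lie mostly to the right, with medians of 0.42 and 0.39, as do microglia genes, while granule neuron genes lie around -0.06.

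The covariate touched the calls of other cell types unequally. Of the 10 tested microglia genes 9 were called higher in null at P49, and 9 of 10 were called with Ttr in the model. Of the 11 Purkinje cell genes 7 were called lower, and 4 of 11 with Ttr in the model. The median P49 difference of the Purkinje cell genes was -0.63 without Ttr and -0.65 with it, so the lost calls did not go with a smaller median difference. That of the microglia genes was 2.60 and 2.42. Over all genes tested, the calls at P49 went from 210 to 101, of which 100 were among the 210.

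Outside the members, the 8 tested genes most like Ttr over the 12 arrays were Slc35b2 (r = 0.88), Lbp (0.80), Igfbp2 (0.79), Spcs2 (0.78), Mpg (0.77), Slc35a2 (0.77), Rdx (0.76) and Unc93b1 (0.75), out of 7834. Lbp, the lipopolysaccharide-binding protein, spanned 3.58 log2 units. Slc35b2 and Slc35a2, Golgi carriers of nucleotide-linked sulfate and sugar, spanned only 0.54 and 0.45, and Spcs2, a subunit of the signal peptidase, 0.23. Their r is a description over arrays that share normalization.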

How the data were processed

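Per the labels, RNA of 12 individual mice was hybridised to 1 Affymetrix array each. The authors deposited 1 normalized intensity per probe set and array; the summary method is not given in the sources used here, and each array's trimmed mean is near 5002. The intensities were quantile-normalized, 16 was added and log2 taken. The probe set of a single gene symbol with the highest mean stood for a gene, and genes with a mean below the 40th percentile of probe sets (9.93) were left out of the main fit. limma 3.58.1 (R 4.3.3, trend) fitted 4 group means over all 12 arrays, with 5 comparisons, and was tested on simulated data. Array intensities give no depth, and 3 animals per group limit the precision. In none of the 6 pairs of groups did all 3 same-numbered replicates have deviations correlating above 0.1 (in 2 all 3 were above 0), so numbers were not used to pair. Members, marker lists and tests were chosen with earlier results of these data known. The text names all members, the 8 genes most like Ttr and, per list, up to 4 genes with the smallest p. Alternatives changed the normalization, pseudocount, filter, probe set rule, arrays and covariates.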

Additional observations from a re-analysis of the deposited data

How the results depend on the processing

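The count of members called, among those above the filter, was 0 in all 5 comparisons and stayed at 0 under every alternative run, with 2 exceptions. At P49 it was 1 with only the arrays of the 2 groups compared, and in the null age comparison leaving out 1 array in turn gave 0 to 1. Over 39 results for single genes, 889 values under alternatives were computed: 795 kept direction and side of the threshold, 30 lost a call, 4 gained one (Ttr once and Sostdc1 in 2 settings at P49, Otx2 once with age in null) and 60, over 22 results, changed sign. All of those 22 were uncalled differences. In the P21 genotype comparison, leaving out 1 array in turn gave -2.00 to 1.16 for Ttr, -1.05 to 0.77 for Kl, -1.14 to 0.64 for Folr1, -1.77 to 0.86 for Kcne2, -1.03 to 1.05 for Aqp1, -0.72 to 0.14 for Otx2 and -1.96 to 0.87 for Sostdc1. In the null age comparison it gave -0.39 to 2.25 for Kcne2 and -0.55 to 1.54 for Aqp1.

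At P21, genotype values of the other sign were 0.0063 and 0.046 for Kl with the larger pseudocount and with the mean of probe sets, 0.031 for Folr1 with the larger pseudocount, and -0.023 for Aqp1 as deposited. Without the 2 arrays whose Xist went against the label they were 0.61 for Ttr, 0.47 for Kl and 0.13 for Sostdc1, and in the null age comparison -0.10 for Kcne2 and -0.40 for Aqp1; without the 4 arrays, chosen after seeing the data, Aqp1 gave -0.18 there. That setting leaves 1 null P21, 2 wild-type P21 and 2 null P49 arrays, and the single null P21 array borrows the spread of the remaining groups. With Ttr as a covariate they were 0.13 for Kl and 0.080 for Folr1 at P21, -0.089 for Otx2 at P49 and 0.058 for Otx2 with age in wild-type. With age in null they were -0.0081 for Kl, -0.035 for Folr1, -0.27 for Kcne2 and -0.18 for Aqp1. With another Ttr probe set as the covariate, also added after seeing the data, they were 0.55 for Kl, 0.40 for Folr1, 0.19 for Kcne2 and 0.27 for Sostdc1 at P21, and -0.19 for Kcne2, -0.061 for Aqp1 and -0.22 for Otx2 at P49. For the genotype by age difference they were -0.29 for Folr1, -0.38 for Kcne2, -0.49 for Aqp1, -0.19 for Otx2 and -0.016 for Sostdc1. With age they were 0.055 for Aqp1, 0.20 for Otx2 and 0.095 for Sostdc1 in wild-type, and -0.34 for Kl, -0.35 for Folr1, -0.78 for Kcne2 and -0.44 for Aqp1 in null. The cause was not tested.

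Over all genes tested, 210 were called at P49, 400 with only the 2 groups' arrays, 101 with Ttr as a covariate, 87 with the other Ttr probe set and 365 without the 4 arrays. Over all alternatives the calls ran from 87 to 400 at P49, 1 to 27 at P21 (5 as reported), 17 to 100 for the genotype by age difference (43 as reported), 13 to 143 with age in wild-type (55 as reported) and 126 to 639 with age in null (486 as reported). The upper values of 100 and 143 come from the fit without the 4 arrays. With the replicate block, which the labels' numbers do not show to pair animals, 189 were called, Ttr differed by 3.13 (limma adjusted p = 0.315) and Ecrg4 lost its call. With 3 animals a group and an SE of 1.30 for Ttr, smaller differences could not be shown.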

Other observations

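Lists for other cell types near the plexus held few measured genes. Of 22 ependymal genes 9 had a probe set and 3 passed the filter. Of these 3, Mia fell from P21 to P49 in null mice by 1.35 (± 0.27 SE, limma adjusted p = 0.0085), with an r with Ttr of 0.03. The others, Nnat and Rarres2, had positive, uncalled differences of 0.89 and 0.04, with an r with Ttr of 0.55 and -0.27. In that comparison 6.2% of genes tested were called in either direction. Of the other choroid plexus genes, Slc29a4, a monoamine transporter, fell in the same comparison by 0.84 (± 0.14 SE; limma adjusted p = 0.0036), with an r with Ttr of 0.08, while Ecrg4 rose by 2.25 (± 0.55 SE; limma adjusted p = 0.028). The summed intensity of 7 blood genes was 44289 on null P21 replicate 1, an array low in the members, and 20574 to 23740 on the other 11. That of 11 brainstem genes was 9877 on null P49 replicate 2 and 1934 to 6809 on the others. Only 1 of these 11 brainstem genes and 3 of the 7 blood genes passed the filter on dim genes.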
